A study of Mus musculus with 1 sample.

Results

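The CCAAT/enhancer-binding protein (C/EBP) family paralogues Cebpa, Cebpb, Cebpd, Cebpe and Cebpg were followed through the progenitor types of normal mouse bone marrow (BM). They were taken by gene symbol, which found 5 of the 32285 genes in the count matrix, each with 1 row. The data were 1 droplet single-cell RNA-seq library of Lineage- cKit+ hematopoietic stem and progenitor cells (HSPCs) from the femora and tibiae of C57BL/6 mice. The study asked how loss of the bromodomain protein BRD9 alters hematopoietic stem cells, and this library is its control: the cells carried the floxed alleles Brd9fl/fl without the Mx1-Cre transgene, which drives deletion in blood cells after interferon induction. The mice had nonetheless received polyinosinic-polycytidylic acid (pIpC), an inducer of interferon, at 20 mg/kg in 3 doses given every other day, and the cells were prepared 8 weeks afterwards. The sample labels describe transplanted marrow, with a CD45.2(+) donor, a CD45.1(+) CD45.2(-) recipient and injections starting 4 weeks after transplantation, whereas the series text describes primary mice injected from 4 weeks after birth, and this was not settled here. The library of Mx1-Cre deleted cells was not analysed here, so no effect of BRD9 is described, and the number of mice behind the library was not given in the sources used here.

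C/EBP proteins are basic leucine zipper transcription factors: a basic region binds DNA and a leucine zipper pairs 2 proteins into a dimer, within the family or with related factors. Cebpa is known for opening the granulocyte and monocyte path from early progenitors. Cebpb is known from monocytes, macrophages and emergency granulopoiesis, Cebpd as an inducible member of inflammatory and acute phase responses, and Cebpe from the late steps of neutrophil and eosinophil maturation, when secondary granules form. Cebpg is a short member that lacks the activation domain of the others and acts mainly as a dimer partner.

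The stretch in which the coding sequences of Cebpa, Cebpb, Cebpe and Cebpg were most alike shows how close the paralogues are where they bind DNA and how Cebpg stands apart. Below are in-frame windows of 60 bases each, 5′ to 3′ on the coding strand, read from GENCODE M21 transcripts on GRCm38. Capitals mark the 35 bases that are identical in these 4.
Cebpa: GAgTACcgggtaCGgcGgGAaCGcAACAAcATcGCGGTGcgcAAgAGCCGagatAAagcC
Cebpb: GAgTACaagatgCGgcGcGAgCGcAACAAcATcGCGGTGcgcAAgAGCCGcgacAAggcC
Cebpe: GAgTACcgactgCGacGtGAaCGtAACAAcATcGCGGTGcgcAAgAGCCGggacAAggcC
Cebpg: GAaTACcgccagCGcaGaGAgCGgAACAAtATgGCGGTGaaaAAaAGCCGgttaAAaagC

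In this window Cebpa, Cebpb and Cebpe were identical to each other at 85% of bases, while the matches of Cebpg with these 3 lay between 61.7% and 66.7%. The longest exact stretch shared by the transcripts of any pair of the 4 was 29 bases, in Cebpa and Cebpb. No transcript of another gene shared 90 or more bases with a member at 95% identity or above.

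On GRCm38, Cebpa (ENSMUSG00000034957) lies at chr7:35119293-35121928 on the plus strand and Cebpg (ENSMUSG00000056216) at chr7:35046422-35056573 on the minus strand, with 62719 bases between them. Cebpb (ENSMUSG00000056501) lies at chr2:167688915-167690418 and Cebpd (ENSMUSG00000071637) at chr16:15887286-15891031, both on the plus strand. Cebpe (ENSMUSG00000052435) lies at chr14:54710360-54712174 on the minus strand. Cebpa, Cebpb and Cebpd have a coding transcript of 1 exon, with 359, 296 and 268 codons before the stop, whereas Cebpe and Cebpg have 2 exons, with 281 and 150 codons. Other genes overlap 4 of the members: Tmem189 (2315 unique molecular identifiers, UMIs) on the strand opposite Cebpb, Spidr (2855 UMIs) opposite Cebpd, Gm45091 (5 UMIs) opposite Cebpa, and Gm44836 (21 UMIs) on the strand of Cebpg. Whether reads were exchanged between these partners was not tested.

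After the cell filter of the study, 7645 of 8817 barcodes were kept, with a median of 18696 UMIs (range 1592 to 49991) and 151852381 UMIs in all. Kit, the receptor of the sort, was at 88.1 counts per 1000000 UMIs (CPM) with a UMI in 65.8% of cells. Of genes of the lineage antigens, Cd3e (T cells) and Ly6g (neutrophils) had 5 and 7 UMIs in all, and Itgam, which encodes CD11b, had 966. Brd9, intact in these cells, was at 30.3 CPM. A doublet caller marked 265 cells (3.47%), which were kept in the values given here.

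Cells were assigned to gates from 84 marker genes in 12 lists, none of them a C/EBP gene. A gate is a range of marker scores and not a purified cell type: 1134 cells lay within 0.1 of a limit of the rule, and 1370 cells (17.9%) entered no gate. The 10 gates described hold 857 stem cell-like cells (Procr, Mecom and Hlf among the leading genes), 449 multipotent progenitor-like (Dntt, Flt3, Satb1), 1603 primary granule progenitor-like (Elane, Prtn3, Ctsg), 64 later neutrophil-like (S100a9, Camp, Fcnb), 755 monocyte-like (Klf4, F13a1, Csf1r), 230 dendritic cell-like (Cd74, H2-Aa, Xcr1), 429 basophil or mast cell-like (Prss34, Mcpt8, Cpa3), 50 eosinophil-like (Prg2, Prg3, Epx), 1245 erythroid-like (Ermap, Cldn13, Rhd) and 562 megakaryocyte-like cells (Pf4, Treml1, Vwf). B lineage-like (14) and T or NK cell-like (17) cells were too few to describe. Of the later neutrophil list, the secondary granule genes Ltf and Ngp had 0 and 11 UMIs in the later neutrophil-like gate. Elane was at 19895 CPM there against 9229 CPM in primary granule progenitor-like cells, so primary granule RNA prevailed in both gates. The multipotent progenitor-like list joined markers of multipotent and of lymphoid-primed progenitors. Gates still held marker RNA of other lists: the primary granule markers summed to a median of 146 UMIs per cell thinned to 5000 UMIs in the primary granule progenitor-like gate and 282 in the later neutrophil-like gate, and also to 47 in monocyte-like, 55 in eosinophil-like and 34 in basophil or mast cell-like cells, against 1 in erythroid-like, megakaryocyte-like and dendritic cell-like cells.

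Levels are given as CPM, the UMIs of a gene per 1000000 UMIs of a gate. In a 3′ library each captured molecule gives 1 UMI whatever the transcript's length, but the efficiency of capture can differ between genes, so levels of different paralogues are compared with that limit. All intervals are exact 95% intervals and cover counting error only. With 1 library there was no replicate check of any difference, and no p-value was computed.

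Over all cells the family held 39751 UMIs, 261.8 CPM. Cebpb was the most abundant member at 81.1 CPM (12312 UMIs), followed by Cebpd at 55.8 CPM, Cebpa at 43.6 CPM, Cebpg at 42.5 CPM and Cebpe at 38.8 CPM. Cebpe, at a level close to that of Cebpg, was far more unevenly spread over cells: the 76 cells with the most Cebpe held 18.5% of its UMIs, and 19.9% of cells had a Cebpe UMI, while the same number of cells held 5.62% of the UMIs of Cebpg and 54.1% of cells had a Cebpg UMI.

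For each gate, a gene was called higher or lower where its CPM differed at least 2-fold from that of all other cells of the library and the interval of the ratio left out 1, and the same rule was run over the 10172 genes with 500 or more UMIs. All calls of a member as higher fell in the 5 gates of granulocytes, monocytes, basophils and eosinophils. The primary granule progenitor-like gate had 2 members called higher, Cebpd and Cebpe, against 1.89% of all genes tested, and none called lower, against 14.1%. In the later neutrophil-like gate Cebpb, Cebpd and Cebpe were called higher, against 2.67% of all genes, and none lower, against 22.7%. Monocyte-like cells had Cebpb and Cebpd called higher (4.94% of genes) and Cebpe lower (11.0%). Basophil or mast cell-like cells had Cebpa and Cebpb higher (5.65%) and Cebpe lower (8.28%), and eosinophil-like cells had Cebpe alone higher (3.38%) and none lower (5.0%).

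In the remaining gates no member was called higher. Stem cell-like cells had Cebpa, Cebpd and Cebpe called lower, against 8.42% of genes lower and 16.7% higher. Multipotent progenitor-like cells had Cebpb and Cebpe lower, against 6.37% lower and 4.16% higher, and the same members were lower in dendritic cell-like cells, where 12.1% of genes were lower and 8.17% higher. Erythroid-like and megakaryocyte-like cells both had Cebpa, Cebpb, Cebpd and Cebpe lower, against 22.7% of genes lower and 8.09% higher in the former and 7.80% lower and 7.75% higher in the latter. Cebpg, the short dimer partner, was called in none of the 10 gates.

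**Figure D1:**
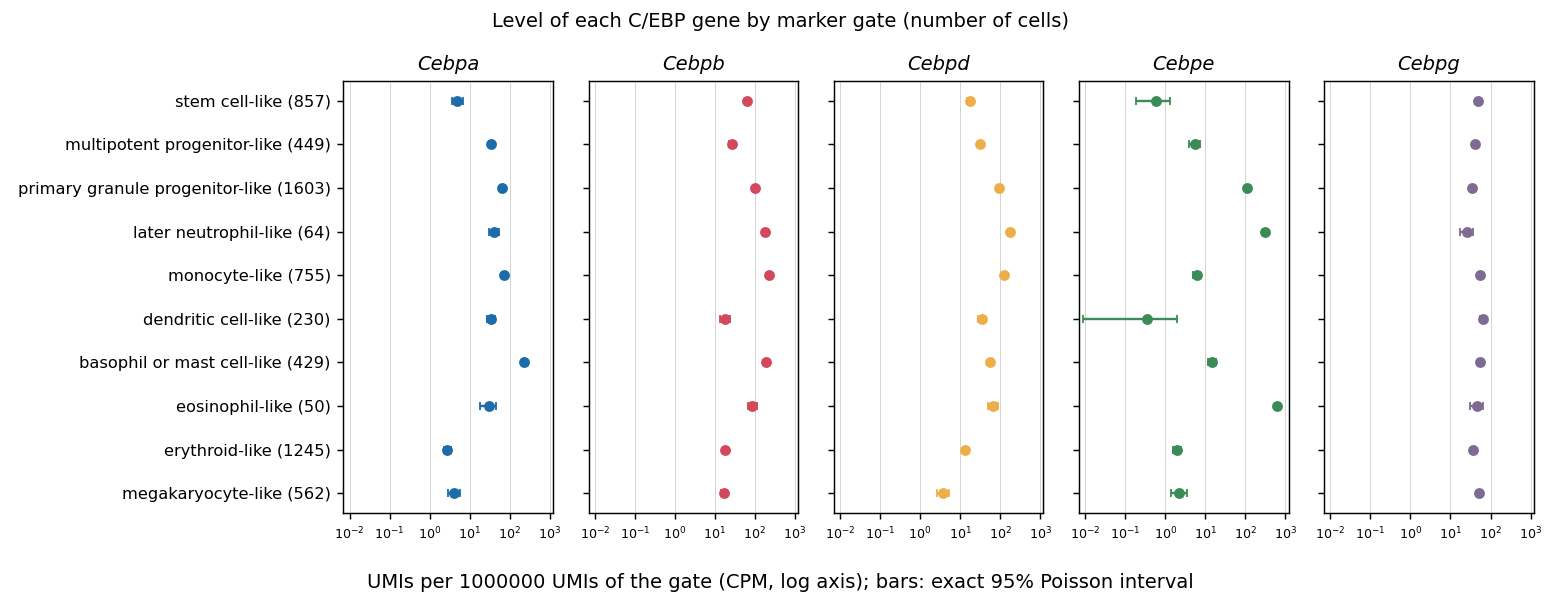
CPM of the 5 C/EBP genes (log axis) in the 10 marker gates, with exact 95% intervals that cover counting error only. Cebpa peaks in basophil or mast cell-like cells at 228 CPM, Cebpb in monocyte-like cells at 229.6 CPM and Cebpe in eosinophil-like cells at 613.7 CPM, while Cebpg stays between 25.2 and 63.4 CPM.

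Cebpa, the granulocyte-monocyte entry factor, was highest in basophil or mast cell-like cells, at 228 CPM (216 to 240). It was next at 73.1 CPM in monocyte-like and 63.3 CPM in primary granule progenitor-like cells, so the first place was 3.12-fold (2.88 to 3.38) above the second. A middle group followed, with 40.3 CPM in later neutrophil-like, 34.4 in dendritic cell-like, 34.2 in multipotent progenitor-like and 29.6 in eosinophil-like cells, and no neighbours within it differed beyond counting error. Stem cell-like cells were at 4.95 CPM, megakaryocyte-like cells at 4.11 and erythroid-like cells at 2.79, again without a difference between neighbours beyond counting error. Between eosinophil-like and stem cell-like cells the Cebpa level dropped 5.98-fold (3.37 to 10.3).

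Shares of cells with a Cebpa UMI gave the same picture at equal depth. After thinning each cell to 5000 UMIs, which left out 99 shallower cells, 66.4% of basophil or mast cell-like cells had a Cebpa UMI (87.9% unthinned, median depth 12519 UMIs), against 30.7% of monocyte-like cells (71.9% unthinned, 20444 UMIs) and 25.2% of primary granule progenitor-like cells (69.9% unthinned, 22466 UMIs). Erythroid-like cells, the reference for free RNA, had 1.45% (0.862 to 2.28; 6.51% unthinned, 32629 UMIs). The stem cell-like share of 1.54% (3.15% unthinned, 8705 UMIs) and the megakaryocyte-like share of 1.97% (5.69% unthinned, 16164 UMIs) lay within that interval, so by share of cells Cebpa in these 2 gates could not be told from background, although the stem cell-like CPM was 1.77-fold (1.22 to 2.54) the erythroid-like CPM. With gates by graph cluster that ratio of CPM reversed, to 0.382. Of the 81 erythroid-like cells with a Cebpa UMI, 24 were doublet calls, and without doublet calls the erythroid-like level was 1.82 CPM. Multipotent progenitor-like cells, at 13.5% of cells (35.2% unthinned, 16798 UMIs), were above the background share, but their level depended on the gate: where each cell took the most frequent gate of its graph cluster, it was 5.96 CPM and called lower. The eosinophil-like level, from 21 UMIs, was 49.5 CPM as a mean over cells.

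Cebpb, the member of monocytes and of emergency granulopoiesis, was highest in monocyte-like cells at 229.6 CPM (222 to 237). Basophil or mast cell-like cells at 189.6 CPM and later neutrophil-like cells at 183.7 CPM came next and did not differ beyond counting error. Primary granule progenitor-like cells were at 100.9 CPM and eosinophil-like cells at 86.1 CPM. Thus all 5 of these gates lay above the stem cell-like level of 63.2 CPM (58.0 to 68.7). Multipotent progenitor-like (26.4 CPM), dendritic cell-like (18.3), erythroid-like (18.2) and megakaryocyte-like cells (16.7) formed the low end, where the last 3 did not differ beyond counting error. The monocyte-like and dendritic cell-like gates, both of the mononuclear phagocyte branch, differed 12.6-fold (9.54 to 16.9) in Cebpb, or 23.3-fold with gates by graph cluster. They differed 2.13-fold in Cebpa (1.73 to 2.65) and 3.51-fold in Cebpd (2.86 to 4.34). The Cebpe ratio was 16.9 (2.96 to 675), with 1 UMI in dendritic cell-like cells, and the Cebpg ratio was 0.860 (0.731 to 1.02).

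The stem cell-like gate was the exception to the low Cebpb of cells outside the myeloid gates. Cebpb there was 2.39-fold (2.04 to 2.82) the multipotent progenitor-like level, 3.77-fold (3.16 to 4.52) the megakaryocyte-like level and 3.47-fold (3.1 to 3.88) the erythroid-like level. Of thinned stem cell-like cells, 25.1% had a Cebpb UMI, against 11.7% of multipotent progenitor-like and 8.70% of erythroid-like cells (unthinned 38.9%, 31.4% and 36.9%, in that order). Cebpa went the other way, with a stem cell-like level 0.145-fold (0.102 to 0.20) that of multipotent progenitor-like cells, or 0.309-fold with gates by graph cluster. The multipotent progenitor-like gate rests partly on lymphoid-primed markers such as Dntt, so these ratios do not stand for multipotent progenitors alone.

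Immediate early genes, which rise within minutes of a stimulus and also when tissue is dissociated, were summed beside this result over 8 genes chosen after values had been seen (Fos, Fosb, Jun, Junb, Egr1, Ier2, Dusp1 and Zfp36). Their summed level was highest in stem cell-like cells, at 6213 CPM, followed by 4795 in basophil or mast cell-like, 3058 in megakaryocyte-like, 2382 in dendritic cell-like and 2194 in multipotent progenitor-like cells. The other gates were lower, with 1677 CPM in eosinophil-like, 1231 in monocyte-like, 635 in primary granule progenitor-like, 522 in erythroid-like and 343 in later neutrophil-like cells. The order of the gates differed from that of Cebpb, for which stem cell-like cells were the sixth and megakaryocyte-like cells the last. Within the stem cell-like gate, the 212 thinned cells with a Cebpb UMI held 7408 CPM of the 8 genes and the 632 without held 5830 CPM, a ratio of 1.27 (1.25 to 1.29). In monocyte-like cells the same ratio was 0.982 (0.954 to 1.01). The stem cell-like gate also had the highest median mitochondrial share, 4.80%, against 2.79% in primary granule progenitor-like cells. The part of dissociation or RNA quality in the Cebpb level was not tested.

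Cebpd, the inducible acute phase member, was highest in later neutrophil-like cells at 179.5 CPM (156 to 205). Monocyte-like cells followed at 121.8 CPM, primary granule progenitor-like cells at 95.7, eosinophil-like cells at 67.7 and basophil or mast cell-like cells at 56.3. Its order was the most finely resolved of the family, since 7 of 9 neighbouring gates differed beyond counting error. Dendritic cell-like (34.7 CPM) and multipotent progenitor-like cells (31.9) did not differ, and stem cell-like (17.7), erythroid-like (13.6) and megakaryocyte-like cells (3.80) closed the order. With gates by graph cluster the multipotent progenitor-like Cebpd level was 9.37 CPM, below the stem cell-like level. Erythroid-like cells exceeded megakaryocyte-like cells 3.57-fold (2.56 to 5.13), although both derive from shared progenitors, and 7.01% against 1.97% of their thinned cells had a Cebpd UMI (27.0% and 5.52% unthinned).

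Cebpe, the late granulocyte member, was the most restricted. It was at 613.7 CPM (557 to 674) in eosinophil-like cells, 301.9 CPM (272 to 335) in later neutrophil-like cells and 112.8 CPM (109 to 116) in primary granule progenitor-like cells. Each of these steps was beyond counting error, with ratios of 2.03 (1.76 to 2.34) and 2.68 (2.40 to 2.98). All 50 eosinophil-like cells had a Cebpe UMI, up to 31 in a cell, and 39 of the 42 deep enough to thin (92.9%) still had one after thinning. Thinned later neutrophil-like cells had one in 73.4% (95.3% unthinned) and primary granule progenitor-like cells in 37.7% (66.4% unthinned).

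In the other gates described Cebpe was at 14.6 CPM or below, while cells in no gate had 25.6 CPM. Basophil or mast cell-like cells were at 14.6 CPM, 0.0238-fold (0.0187 to 0.0300) the eosinophil-like level, and those UMIs came from few cells: 88 UMIs lay in 19 of 429 cells, and 5 cells held 61 of them. These 19 cells were deeper, with a median of 26215 UMIs against 12316.5 for the other 410, and 3 of them were doublet calls. They had 14639 CPM of the primary granule markers against 6841 CPM in the others, and 8995 CPM of the basophil or mast cell markers against 32443 CPM. The eosinophil markers were at 57.2 against 6.29 CPM and the later neutrophil markers at 233 against 60.4 CPM. The Cebpe of this gate thus lay in cells with less of its own markers and more of 3 other lists, and the part of doublets in it was not tested further. With gates by graph cluster the level was 28.8 CPM and no longer past the 2-fold rule. In the multipotent progenitor-like gate (5.41 CPM) 5 cells likewise held 33 of 43 UMIs, and by cluster the level was 0.852 CPM.

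Monocyte-like cells had 6.06 CPM of Cebpe (4.90 to 7.41), 0.0537-fold (0.0434 to 0.0659) the level of primary granule progenitor-like cells, and 3.19% of their thinned cells had a UMI (10.5% unthinned). The erythroid-like reference had 0.483% (0.178 to 1.05; 3.37% unthinned), and 13 of its 42 cells with a Cebpe UMI were doublet calls, without which its level went from 2.0 to 1.17 CPM. The thinned shares of stem cell-like (0.237%, 0.583% unthinned) and megakaryocyte-like cells (0.358%, 2.14% unthinned) were at or below that reference and are read as background. Dendritic cell-like cells had 1 Cebpe UMI in 230 cells, and 0 of 226 thinned cells had one, which allows a share of up to 1.33%. The monocyte-like and the granulocyte gates thus parted in Cebpe, while Cebpb and Cebpd were called higher in both monocyte-like and later neutrophil-like cells.

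Cebpg varied least. Its gate levels ran from 25.2 CPM in later neutrophil-like to 63.4 CPM in dendritic cell-like cells, a 2.52-fold range. In order, monocyte-like (54.5 CPM), basophil or mast cell-like (53.8), megakaryocyte-like (52.2), stem cell-like (48.2), eosinophil-like (45.1), multipotent progenitor-like (42.1), erythroid-like (37.5) and primary granule progenitor-like cells (34.2) lay between. Only 1 of the 9 neighbouring steps, between erythroid-like and primary granule progenitor-like cells, was beyond counting error. Cebpg was the 1 member whose lowest levels were in the neutrophil-lineage gates.

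Paralogue use, the share of each member in the family's UMIs of a gate, changed its leading gene from branch to branch. Cebpe held 72.9% (69.1 to 76.4) of family UMIs in eosinophil-like, 41.3% in later neutrophil-like and 27.7% in primary granule progenitor-like cells. Cebpb led in monocyte-like cells with 47.3% (46.2 to 48.5) and in stem cell-like cells with 46.9% (44.0 to 49.8), at a family total of 485 CPM in the former and 135 CPM in the latter. Cebpa led in basophil or mast cell-like cells with 42.0% (40.3 to 43.8), ahead of Cebpb with 35.0%.

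In the other 4 gates the dimer partner led instead. Cebpg held 66.0% of family UMIs in megakaryocyte-like (79.1 CPM in total), 50.6% in erythroid-like (74.1 CPM), 41.9% in dendritic cell-like (151 CPM) and 30.1% in multipotent progenitor-like cells (140 CPM), where it was 50% with gates by graph cluster. Its own CPM in these gates was not called higher by the 2-fold rule. Cebpd led in no gate, and its share ran from 4.81% in megakaryocyte-like to 25.1% in monocyte-like cells.

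**Figure D2:**
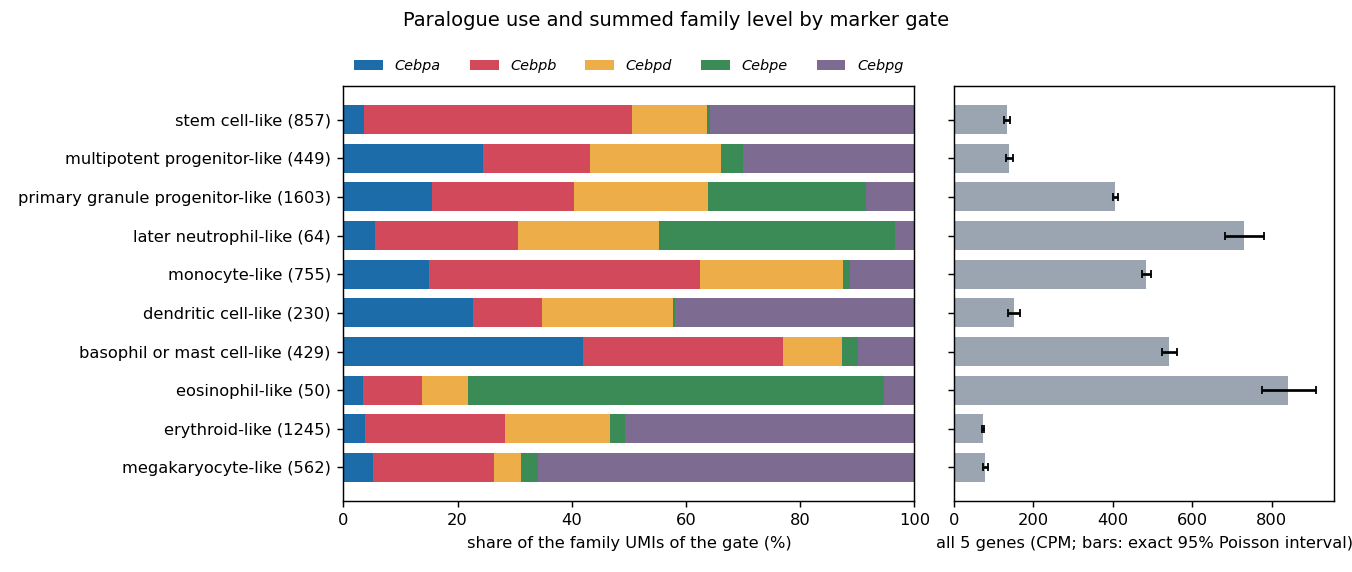
Share of family UMIs (percent, left) taken by each of the 5 C/EBP genes in the 10 marker gates with their numbers of cells, and the family total in CPM with exact 95% Poisson intervals (right). Cebpe takes 72.9% in eosinophil-like cells, Cebpb 47.3% in monocyte-like and 46.9% in stem cell-like cells, Cebpa 42.0% in basophil or mast cell-like cells and Cebpg 66.0% in megakaryocyte-like cells.

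Levels were next followed over ranges of marker UMIs, counted per cell after thinning, as ranges of a score and not as times. Over the later neutrophil markers, in primary granule progenitor-like and later neutrophil-like cells together, Cebpe was at 80.0, 141, 174, 219 and 319 CPM in cells with 0, 1, 2 to 4, 5 to 19 and 20 or more marker UMIs (998, 264, 175, 161 and 67 cells). The highest range was 3.99-fold (3.57 to 4.45) the lowest. Cebpb and Cebpd also stepped up at each range, by 1.87-fold (1.61 to 2.16) and 2.01-fold (1.74 to 2.32) in all. Cebpa went down instead, from 70.0 CPM in the first range to 37.5 and 39.3 CPM in the last 2, a ratio of 0.562 (0.412 to 0.748), and Cebpg had a ratio of 0.479 (0.298 to 0.729).

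The primary granule markers themselves gave the same split, although these proteases and peroxidase are made before the secondary granule proteins. From the range of 0 to 99 marker UMIs to that of 200 or more, Cebpe went from 52.1 to 225 CPM, a ratio of 4.32 (3.89 to 4.81). Cebpa went from 78.5 to 43.2 CPM, a ratio of 0.551 (0.485 to 0.625), and fell at each range. Cebpb and Cebpd had ratios of 1.74 and 2.09 and Cebpg one of 0.593. Cells with the most granule protease RNA thus had the most Cebpe and the least Cebpa.

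Along the monocyte markers, in primary granule progenitor-like and monocyte-like cells together, Cebpe fell at each range, with 199, 149, 63.6, 12.2 and 3.39 CPM (573, 262, 352, 1041 and 125 cells). The last range was 0.0170-fold (0.00733 to 0.0335) the first. Cebpb did not rise steadily: it was at 104, 91.5 and 88.0 CPM over the first 3 ranges and at 173 and 311 CPM in the last 2, 2.997-fold (2.73 to 3.28) the first. The fall of Cebpe was therefore visible in ranges in which Cebpb had not risen. Cebpd (1.56-fold), Cebpa (1.49-fold) and Cebpg (2.25-fold) were all higher in the last range than in the first.

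**Figure D3:**
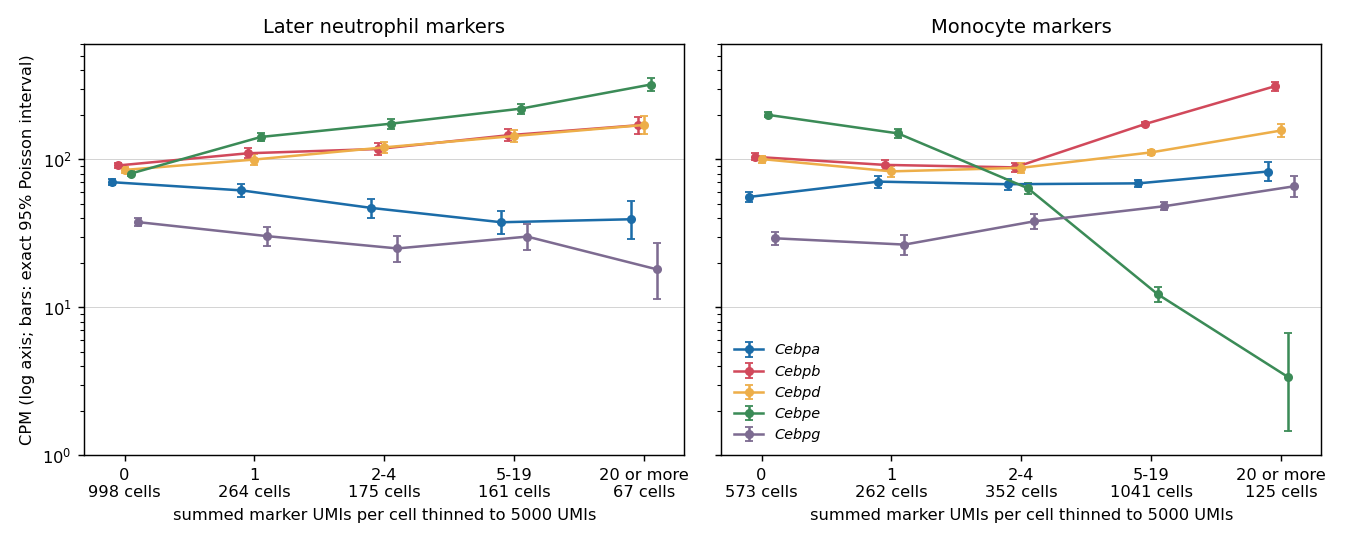
CPM of the 5 C/EBP genes (log axis) over ranges of summed marker UMIs per cell thinned to 5000 UMIs, for the later neutrophil markers (left) and the monocyte markers (right), with exact 95% Poisson intervals. Cebpe rises from 80.0 to 319 CPM on the left and falls from 199 to 3.39 CPM on the right, where Cebpb ends at 311 CPM.

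Single cells of the myeloid gates often held several members. At 5000 UMIs per cell, 73.4% of later neutrophil-like cells had UMIs of at least 2 paralogues, as did 61.7% of basophil or mast cell-like, 57.1% of eosinophil-like, 53.2% of monocyte-like and 48.3% of primary granule progenitor-like cells. The other gates had far fewer such cells: 12.6% of multipotent progenitor-like, 11.9% of dendritic cell-like, 9.0% of stem cell-like, 4.19% of erythroid-like and 3.22% of megakaryocyte-like cells. A cell had a mean of 2.16 paralogues in the later neutrophil-like gate and 0.342 in the megakaryocyte-like gate. No thinned monocyte-like cell held all 5, and 0.437% of primary granule progenitor-like cells did.

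Within gates, few pairs had intervals that lay apart between cells with and without the first gene. Overlap of intervals at this depth cannot show that 2 paralogues were detected independently. Of 64 combinations of a pair and a gate with 20 or more cells holding the first gene, 2 had intervals that lay apart. In basophil or mast cell-like cells, Cebpb had a UMI in 61.6% (55.7 to 67.4) of the 279 cells with Cebpa and in 44.7% (36.3 to 53.3) of the 141 without, and 41.0% of cells held both. Averaged over all possible thinned draws, the shares were 62.3% and 46.7%. Without thinning, where cells of unlike depth are compared, the difference was 40.3 percentage points. In multipotent progenitor-like cells, Cebpd had a UMI in 30.8% of the 52 cells with Cebpb and 14.2% of the 394 without, but over all draws the shares were 17.9% and 13%, so most of that gap belonged to the 1 draw.

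Cebpe, the late granulocyte member, had overlapping intervals of its share in cells with and without Cebpa, the early member. In primary granule progenitor-like cells, 35.7% (31.0 to 40.6) of the 403 cells with Cebpa had Cebpe and 38.3% (35.6 to 41.1) of the 1198 without, and 8.99% of cells held both. In monocyte-like cells Cebpd had a UMI in 47.2% (42.5 to 52.0) of cells with Cebpb and 37.0% (31.5 to 42.7) of cells without. Over all draws these were 47.7% and 35.4%. The difference was 29.9 percentage points without thinning and 34.8 points with 2 UMIs required of each, where depth also differs between cells. Pooled over the library, where cells of unlike gates are mixed, Cebpb was in 44.0% of cells with Cebpa against 24.4% without. Not all pooled pairs parted: Cebpg was in 19.6% of cells with Cebpb against 20.0% without.

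**Figure D4:**
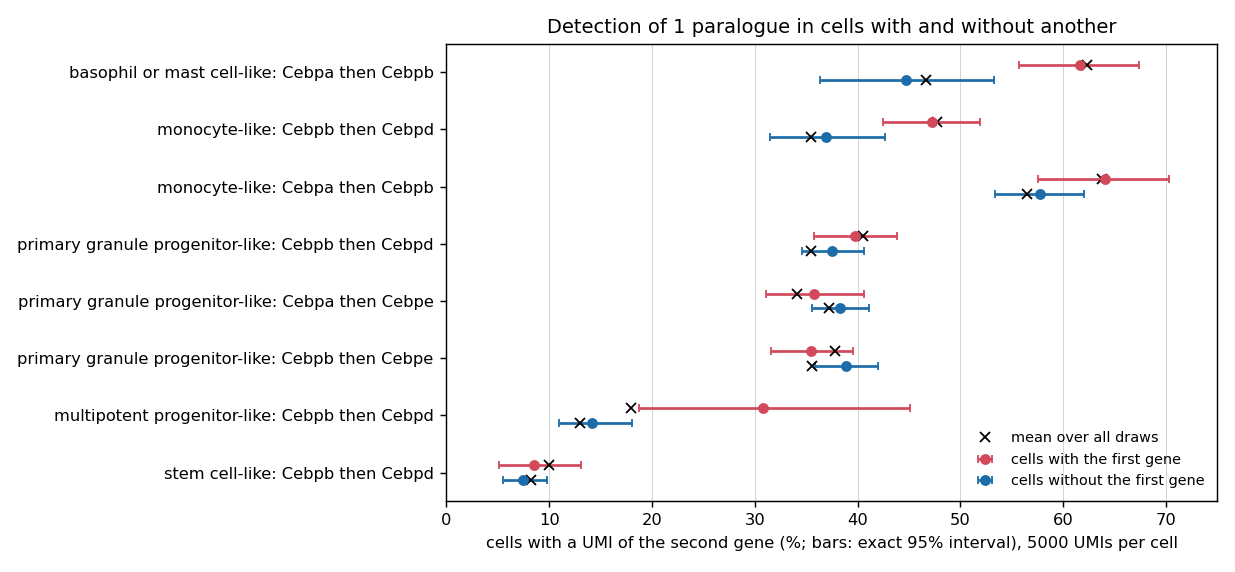
Percent of thinned cells with a UMI of the second gene among cells with and without a UMI of the first, for 8 combinations of a pair and a gate, with exact 95% intervals and crosses for the mean over all thinned draws. Intervals lie apart for Cebpa with Cebpb in basophil or mast cell-like cells (61.6% against 44.7%) and for Cebpb with Cebpd in multipotent progenitor-like cells, where the crosses lie at 17.9% and 13%, and they overlap for Cebpa with Cebpe in primary granule progenitor-like cells (35.7% against 38.3%).

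Other lineage factors were compared between cells with and without a member. Among primary granule progenitor-like cells, Irf8, a factor of monocytes and dendritic cells, was at 66.7 CPM in the 603 cells with a Cebpe UMI and 258.6 CPM in the 998 without, a ratio of 0.258 (0.240 to 0.277). Klf4, a monocyte factor and one of the gate's competing markers, was at 5.24 and 16.2 CPM, a ratio of 0.323 (0.246 to 0.417). Gfi1, a repressor needed for neutrophils, went the other way with 62.7 against 31.8 CPM, a ratio of 1.97 (1.78 to 2.18). Thus cells with Cebpe held more of the neutrophil factor and less of both monocyte factors, at similar depth (median 21707 and 23045 UMIs).

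Spi1, which encodes the shared myeloid factor PU.1, was level between the same cells, at 211 and 212 CPM (ratio 0.995, 0.95 to 1.04). Runx1 had a ratio of 0.730 (0.672 to 0.793). Of the target list, ratios were 1.25 (1.11 to 1.4) for the granulocyte colony-stimulating factor receptor gene Csf3r, 0.442 (0.375 to 0.519) for the interleukin 6 receptor gene Il6ra and 0.609 (0.575 to 0.644) for Lyz2. Splitting the same gate by Cebpa instead gave ratios of 1.10 for Irf8 (1.05 to 1.16), 0.867 for Gfi1 (0.769 to 0.977), 1.0 for Klf4 (0.804 to 1.24), 1.18 for Runx1 (1.09 to 1.28) and 1.39 for Gata2 (1.12 to 1.72).

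Among basophil or mast cell-like cells the 279 with a Cebpa UMI had more Gata2, a factor of mast cells, basophils and stem cells, than the 141 without: 742 against 525 CPM, a ratio of 1.41 (1.32 to 1.51). Runx1 was similarly higher, with a ratio of 1.39 (1.27 to 1.52), and Klf1, an erythroid factor, lower at 0.568 (0.391 to 0.824). The Trib2 ratio of 0.173 (0.0569 to 0.447) rested on 6 and 20 UMIs. Cells with Cebpa were slightly shallower, with a median of 12268 against 13887 UMIs.

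The list of C/EBP partners and inhibitors held 10 genes, 8 of them with the 500 UMIs needed for a call. Between 0 and 2 of the 8 were called higher in each gate, where the share over all genes ran from 1.89% to 16.7%, and between 1 and 3 lower, where it ran from 5.0% to 22.7%. The 3 called lower stood against 22.7% of all genes in erythroid-like and 7.80% in megakaryocyte-like cells. Trib1 and Trib2, pseudokinases that target C/EBP-alpha protein for degradation, were used in unlike gates. Trib1 was called higher in eosinophil-like (48.0 CPM), basophil or mast cell-like (30.1) and stem cell-like cells (16.5). Trib2 was called higher only in erythroid-like cells, at 26.6 CPM, and stood at 0.404 CPM in primary granule progenitor-like cells. Nfil3, a bZIP factor, was higher in multipotent progenitor-like (25.8 CPM) and monocyte-like cells (19.0) and had 0 UMIs in eosinophil-like cells. Ddit3, the stress-induced C/EBP homologous protein, was lower in primary granule progenitor-like (11.3 CPM) and later neutrophil-like cells (8.39), and Batf was higher in stem cell-like cells (34.8).

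The known targets held 14 genes, 10 of them tested, and 9 of the 14 were gate markers, so their direction in those gates was partly fixed by the gating. In the remaining gates it was partly fixed too, since cells rich in these markers were kept out and stood among the other cells. The counts below are therefore no measure of C/EBP activity. In primary granule progenitor-like cells 6 were called higher and 0 lower, against 1.89% and 14.1% of all genes, with a median log2 ratio of 1.62 against -0.31 over all genes tested, and 3 of the 6 were markers of that gate. Later neutrophil-like cells had 7 higher and 2 lower, against 2.67% and 22.7%, with a median of 1.72 against -0.47. Among the targets that were no markers, Csf3r was higher in both gates, at 34.6 and 37.7 CPM, and Gfi1 at 42.9 and 80.5 CPM. Il6ra, however, had ratios of 1.0 and 0.325 over all other cells, the latter called lower, and Lyz2 had 0.572 and 0.798. Monocyte-like cells had 3 higher and 1 lower, against 4.94% and 11.0%, including Lyz2 at 1334 CPM and Il6ra at 81.4 CPM. Erythroid-like cells had all 10 lower, against 22.7% of all genes (median -4.35 against -0.06), and megakaryocyte-like cells 8 lower, against 7.80% (-4.42 against 0.13), the gates with the lowest family totals. In basophil or mast cell-like cells, however, where Cebpa was highest, 7 targets were called lower, against 8.28% of all genes, and 1, Lcn2, higher at 52.9 CPM, against 5.65%, and Elane was at 464 CPM against 9229 CPM in primary granule progenitor-like cells. Stem cell-like cells had 0 higher and 8 lower, against 16.7% and 8.42% of all genes, and dendritic cell-like cells 1 and 8, against 8.17% and 12.1%. Multipotent progenitor-like cells had 0 and 6, against 4.16% and 6.37%, and eosinophil-like cells 2 and 4, against 3.38% and 5.0%, with 1 higher once doublet calls were removed.

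The 10 other lineage factors, all tested and 2 of them gate markers, are described next. Irf8 was called higher in dendritic cell-like (1935 CPM), monocyte-like (975) and multipotent progenitor-like cells (675). Gata2 was higher in basophil or mast cell-like (668 CPM), stem cell-like (277) and megakaryocyte-like cells (274), and Runx1 in the former (404 CPM). Spi1 was higher in dendritic cell-like (340 CPM) and monocyte-like cells (321), 2 gates that differed in Cebpb as given above. In primary granule progenitor-like and later neutrophil-like cells Gfi1 was the 1 factor called higher, against 1.89% and 2.67% of all genes, with 6 and 8 lower, against 14.1% and 22.7%. In the other gates between 1 and 3 factors were called higher, against 3.38% to 16.7% of all genes, and between 3 and 6 lower, against 5.0% to 22.7%. The 6 lower were in erythroid-like cells, where 22.7% of all genes were, and the 5 lower in megakaryocyte-like cells stood against 7.80%. Gfi1, the 1 factor called higher in eosinophil-like cells, was no longer called once doublet calls were removed.

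Likeness of pattern was measured as Pearson's r of log2(CPM + 10) over the 10 gates, which share 1 library and its depth, as a description among 10108 genes. Between members, Cebpb and Cebpd were most alike (r = 0.83) and Cebpe and Cebpg least (r = -0.59). The genes outside the family and the marker lists that were closest to Cebpa were Rpl10 (0.95), Il3ra (0.93) and Gng12 (0.93), and of these Rpl10, a ribosomal protein gene, varied by 0.60 on the log2 scale over the gates. Cebpb was closest to Pcyox1 (0.93), Galns (0.90) and B3gnt8 (0.89), and Cebpd to genes that included Amdhd2 (0.96) and Igsf6 (0.96). For Cebpe the closest were Trim45 (0.96), 1700123O20Rik (0.96) and Gm10282 (0.95), and for Cebpg Ccdc88a (0.96), Cdyl2 (0.95) and Dazap2 (0.94). Gm10282, Pcyox1 and Cdyl2 also varied little over the gates, by 0.47, 0.72 and 0.83 on the log2 scale. The closest genes depended on the processing: 7 of 30 comparisons with these sets moved under the alternatives. For Cebpg, 1 of its 3 genes was kept once doublet calls were removed.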

How the data were processed

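The authors prepared the library with the 10x Chromium Next GEM Single Cell 3′ v3.1 kit, aligned it with Cell Ranger 6.0.2 to mm10 and deposited raw UMI counts per gene and barcode. The sample labels instead describe column-extracted, poly(A)-selected, unstranded RNA, which these barcoded counts do not match. The 5 members were taken by symbol. The members and gene lists were chosen with earlier results of these data known, and the gate rule was set after marker values were seen.

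The study's cell filter was applied, with UMI totals above 1000 but below 50000, detected genes above 1000 but below 6500 and less than 7% of UMIs from mitochondrial genes. Each cell entered the gate with the highest mean marker z-score (z limited to 5) if that score was at least 0.5, lay 0.2 above the second and rested on 3 or more detected markers. Scrublet (expected rate 6%) marked doublets, which were removed only as an alternative. UMIs were summed per gate, ratios took exact conditional binomial intervals, UMI sums exact Poisson and shares Clopper-Pearson intervals, all at 95%, and a count of 0 was read as a limit of 3 counts. Shares of cells used 1 draw of 5000 UMIs per cell. The intervals and calls were tested on simulated data. These were drawn from pooled and gate mean profiles with counting error only, so variation between cells of a gate was not covered. Because there is 1 library, no test between gates was made.

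The text names the 5 members, the genes of 3 pathway lists and, for each member, the 3 genes closest in pattern among those with at least 500 UMIs, and 1 of these genes and 1 coding window are not reported here. Gates to set side by side, the genes of the splits beyond these lists and the immediate early genes were chosen after values were seen. Gene positions and coding windows came from the GENCODE M21 transcripts of GRCm38, and copies were sought with BLAST 2.17.0. Python 3.11.15 with numpy 2.4.6, scipy 1.17.1, pandas 2.3.3, scanpy 1.11.5, scikit-learn 1.9.0 and leidenalg 0.10.2 was used. Alternatives were other cell filters, removal of doublet calls, stricter and looser gates, gates by graph cluster, another denominator, means over cells and other detection rules.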

Additional observations from a re-analysis of the deposited data

Results flagged for a closer look

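The cell filter removed 1172 barcodes with 15600005 UMIs, which enter none of the comparisons, and all 5 members had UMIs there above the level that a count of 0 allows. Cebpa was at 14.3 CPM in the removed barcodes, 0.328-fold (0.286 to 0.375) its level of 43.6 CPM in kept cells. Cebpb was at 32.9 CPM (0.406-fold, 0.371 to 0.444), Cebpd at 20.9 CPM (0.374-fold, 0.334 to 0.418) and Cebpe at 15.4 CPM (0.398-fold, 0.349 to 0.453). Cebpg was at 39.9 CPM there against 42.5 CPM in kept cells, a ratio of 0.94 (0.864 to 1.02). The intervals of the ratios of Cebpa, Cebpb, Cebpd and Cebpe thus lay below 1 and that of Cebpg held 1, and the cause was not tested.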

How the results depend on the processing

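No paired analysis was possible because there is 1 library. Of 2919 values under the alternatives, 2500 kept their value within counting error, or within 1.5 times for counts, 417 moved and 2 reversed. Without mitochondrial, ribosomal protein and haemoglobin genes in the denominator, the top levels were 277 CPM for Cebpd in later neutrophil-like, 345 for Cebpb in monocyte-like, 89.3 for Cebpg in dendritic cell-like, 333 for Cebpa in basophil or mast cell-like and 947 for Cebpe in eosinophil-like cells. Cebpb in monocyte-like cells was 244 CPM with a stricter gate, 221 with a looser gate and 197 with gates by graph cluster, where its share of family UMIs was 45.3%. Cebpe in eosinophil-like cells was 553 CPM with no cell filter and 726 by cluster, and Cebpa in basophil or mast cell-like cells was 263 CPM as a mean over cells. With the stricter gate Cebpg was called lower in 1 gate, the later neutrophil-like, at 0.492-fold. With gates by cluster the ratio of stem cell-like to multipotent progenitor-like cells reversed for Cebpd, to 2.26, as did that of stem cell-like to erythroid-like cells for Cebpa, to 0.382, and the later neutrophil-like gate had no cluster of its own, so that Cebpd was then highest in monocyte-like cells. Gates by cluster also moved Cebpa in multipotent progenitor-like cells, to 5.96 CPM from 34.2. The cause was not tested. Each other member kept its top gate under every alternative, and the ratios of the highest to the lowest range of later neutrophil and monocyte markers kept their value in 60 of 60 cases, which left out the primary granule markers and gates by cluster.

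Co-detection depends on depth by construction. Cebpa and Cebpe together were in 3.87% of primary granule progenitor-like cells with 3000 UMIs per cell, 45.6% without thinning and 17.2% with 2 UMIs required of each. For Cebpa and Cebpb in basophil or mast cell-like cells these were 25.1%, 76.0% and 48.5%. The difference in Cebpb between basophil or mast cell-like cells with and without Cebpa was 40.3 percentage points without thinning, and that in Cebpd between monocyte-like cells with and without Cebpb was 29.9 points without thinning and 34.8 points at 2 UMIs. The mean over all thinned draws was added after seeing the data. The 64 later neutrophil-like and 50 eosinophil-like cells limit the precision there, and 1 library gives no measure of variation between mice.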

Other observations

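The 1370 ungated cells, which were given no gate and entered the ratios only among all other cells, held Cebpa at 49.6 CPM, Cebpb at 81.7, Cebpd at 58.9, Cebpe at 25.6 and Cebpg at 45.4. In them, co-detection was wider apart than within most gates: Cebpd had a UMI in 27.7% of the 336 thinned cells with Cebpb and 14.5% of the 990 without, and over all draws in 30.9% and 14.3%. The leading genes of these cells were Ighg2c, Igkc, Igha, Jchain and Ighm, followed by Ctla2a, Tespa1, Cd34, Apoe and Sox4. The ungated cells were thus a mixture, and the part of its components in the difference was not tested.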
